A study of Mus musculus with 9 samples.

Results

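The hepatocyte transcription factors described here are 9 genes, chosen by name from the 32761 genes of the deposited table: Hnf4a, Foxa1, Foxa2, Foxa3, Cebpa, Nr1h4, Nr1i3, Nr5a2 and Onecut1. Each name matched 1 row. The RNA came from 9 samples of mouse liver tumours, taken on day 14. The tumours were grown in situ from Hepa1-6-luc, a luciferase-marked mouse hepatoma line. All mice carried these tumours, and no source used here gives their strain, sex or age. The study had 6 treatment groups, of which 3 were sequenced. Control mice (3 samples) had no drug named. Lenvatinib+anti-PD1 mice (3 samples) received lenvatinib, an inhibitor of the VEGF and FGF receptor kinases, as free drug at the concentration in the nanocluster every 3 days. They also received an antibody against PD1, an inhibitory receptor of T cells, (50 µg per injection) every 4 days. Co+Len@OVA+anti-PD1 mice (3 samples) received the same antibody and, in place of the free drug, an injected nanocluster (2 mg/mL) every 3 days. The labels do not say what Co or OVA stand for. No sequenced group had the drug, the antibody or the carrier alone, so their shares in a difference cannot be told apart. The line and the host liver are both mouse, so the RNA of tumour cells and of host hepatocytes cannot be told apart by sequence.

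Hepatocyte identity is held by a small network of transcription factors that bind each other's genes and those of liver products. HNF4A is a nuclear receptor that sustains most of the hepatocyte programme, the 3 FOXA proteins are forkhead factors that open chromatin at liver enhancers, C/EBPA (Cebpa) drives metabolic and secretory genes of the differentiated cell, and HNF6 (Onecut1) acts in liver and bile duct development. The other 3 are nuclear receptors: FXR (Nr1h4) senses bile acids, CAR (Nr1i3) responds to foreign compounds, and LRH-1 (Nr5a2) regulates bile acid and cholesterol genes. In hepatomas this network is often retained in part, so these genes can come from tumour cells and from host hepatocytes.

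The 250 bases before the start site are shown for the 3 members that fell most under the nanocluster, Nr1h4, Nr1i3 and Foxa1, and for Hnf4a, which did not pass. They come from RefSeq (GRCm38.p6), whose table matched all 9 members with 13 windows, 2 of them for Hnf4a. The windows are chr10:89506659-89506908 on the minus strand, chr1:171213720-171213969 on the plus strand, chr12:57546112-57546361 on the minus strand, and chr2:163506607-163506856 and chr2:163546905-163547154 on the plus strand. Sequences read 5′ to 3′ along the gene, and capitals mark matches on either strand to 6 motifs.
Nr1h4: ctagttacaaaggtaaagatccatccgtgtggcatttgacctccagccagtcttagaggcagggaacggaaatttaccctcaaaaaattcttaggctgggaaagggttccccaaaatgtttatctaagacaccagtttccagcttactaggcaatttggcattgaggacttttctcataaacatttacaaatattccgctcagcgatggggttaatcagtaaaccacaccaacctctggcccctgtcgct
Nr1i3: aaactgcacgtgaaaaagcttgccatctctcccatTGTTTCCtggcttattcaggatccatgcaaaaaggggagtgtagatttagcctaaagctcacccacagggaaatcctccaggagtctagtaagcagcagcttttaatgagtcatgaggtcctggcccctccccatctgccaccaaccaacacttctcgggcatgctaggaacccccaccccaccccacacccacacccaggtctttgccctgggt
Foxa1: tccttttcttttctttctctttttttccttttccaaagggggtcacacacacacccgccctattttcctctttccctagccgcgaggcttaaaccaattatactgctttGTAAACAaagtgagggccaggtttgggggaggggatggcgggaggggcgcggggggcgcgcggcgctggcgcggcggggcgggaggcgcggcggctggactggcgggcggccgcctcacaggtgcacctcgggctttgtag
Hnf4a window 1: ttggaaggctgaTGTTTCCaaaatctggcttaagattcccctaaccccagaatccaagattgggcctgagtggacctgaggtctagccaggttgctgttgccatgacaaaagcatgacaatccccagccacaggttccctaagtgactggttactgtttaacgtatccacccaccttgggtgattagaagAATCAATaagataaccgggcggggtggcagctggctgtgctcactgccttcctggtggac
Hnf4a window 2: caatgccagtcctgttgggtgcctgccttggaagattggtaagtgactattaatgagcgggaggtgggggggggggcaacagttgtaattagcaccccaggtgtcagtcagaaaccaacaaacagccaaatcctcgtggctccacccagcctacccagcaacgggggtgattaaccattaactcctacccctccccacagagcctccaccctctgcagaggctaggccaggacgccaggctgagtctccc
The motifs and the share of all 32851 windows of this length that hold them were HNF4 (CAAAGNNCA, 5.49%), FOXA (TGTTTNC, 17.8%), C/EBP (TTGCNNAA, 9.56%), FXR (0.0335%), LRH-1 (CAAGGTCA, 1.33%) and HNF6 (ATTGANT, 7.48%). The Nr1i3, Foxa1 and first Hnf4a windows each held 1 FOXA match, at 215, 141 and 238 bases before the start site. The first Hnf4a window also held 1 HNF6 match at 60 bases, with no overlap between matches. None of the 6 motifs was found in the Nr1h4 window or the second Hnf4a window.

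All levels are in FPKM, a unit that divides fragments by the length of the transcript and the size of the library, and they allow levels of different genes to be set side by side. The authors' table gives no fragment totals, so the depth behind each value is unknown, and its columns sum to 331611 to 372794 FPKM. The tests are limma on log2(FPKM + 0.5) over 15353 genes, and "rose" or "fell" means a Benjamini-Hochberg adjusted p under 0.05. Library 3 of each group lay between libraries 1 and 2 for 94.0% to 97.2% of the genes in which those 2 differed over 4-fold, while libraries 1 and 2 did so for 7.69% to 66.7% in the same test. If the third libraries are not independent samples, p-values from 9 libraries are too small, so results from libraries 1 and 2 alone are given beside them. Control library 1 stood apart, with 7492 summed FPKM of 16 mature hepatocyte markers against 3473 and 4895 in the other controls. The labels do not say whether samples of a group came from separate animals, so p-values measure the spread between these 9 samples.

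Of all genes tested, 3209 rose and 1946 fell under the nanocluster against Control, 2120 rose and 1516 fell under free lenvatinib, and 2657 rose and 1850 fell between the treatments. These splits depend on scaling. After median-of-ratios scaling the first was 2216 higher and 2699 lower, and after upper quartile scaling 1642 and 2986, with the median of all genes moved by -0.11 and -0.19 on the log2 scale. The split under free lenvatinib was 1962 higher and 1798 lower, or 1290 and 2084, after the same scalings, and between the treatments 2084 and 2334, or 1922 and 1977. The 4 members that fell under the nanocluster did so under either scaling.

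Of the 9 genes, 4 were expressed strongly and 5 weakly in all groups. In Control, mean levels ran from Foxa2 at 37.1 FPKM through Hnf4a (28.1), Cebpa (24.5) and Foxa3 (19.2) to Foxa1 (5.95), Nr1h4 (2.99), Nr5a2 (2.75), Nr1i3 (2.33) and Onecut1 (1.51). The libraries overlapped between Hnf4a and Cebpa, Cebpa and Foxa3, and each neighbouring pair from Nr1h4 down to Onecut1. The strongly expressed genes Hnf4a, Foxa2, Foxa3 and Cebpa held 87.4% to 87.6% of the summed FPKM of the 9 genes in Control, 84.8% to 85.8% in Lenvatinib+anti-PD1 and 94.6% to 95.2% in Co+Len@OVA+anti-PD1. The sum itself was 124 ± 4.04, 136 ± 2.91 and 127 ± 12.2 FPKM (SD, n = 3) in these groups, given without a test. The sum was higher in every Lenvatinib+anti-PD1 library than in every Control library, while that of Co+Len@OVA+anti-PD1 overlapped with both. Nr1h4 took the fifth place in Lenvatinib+anti-PD1 and the eighth in Co+Len@OVA+anti-PD1, where Nr1i3 was last.

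**Figure D1:**
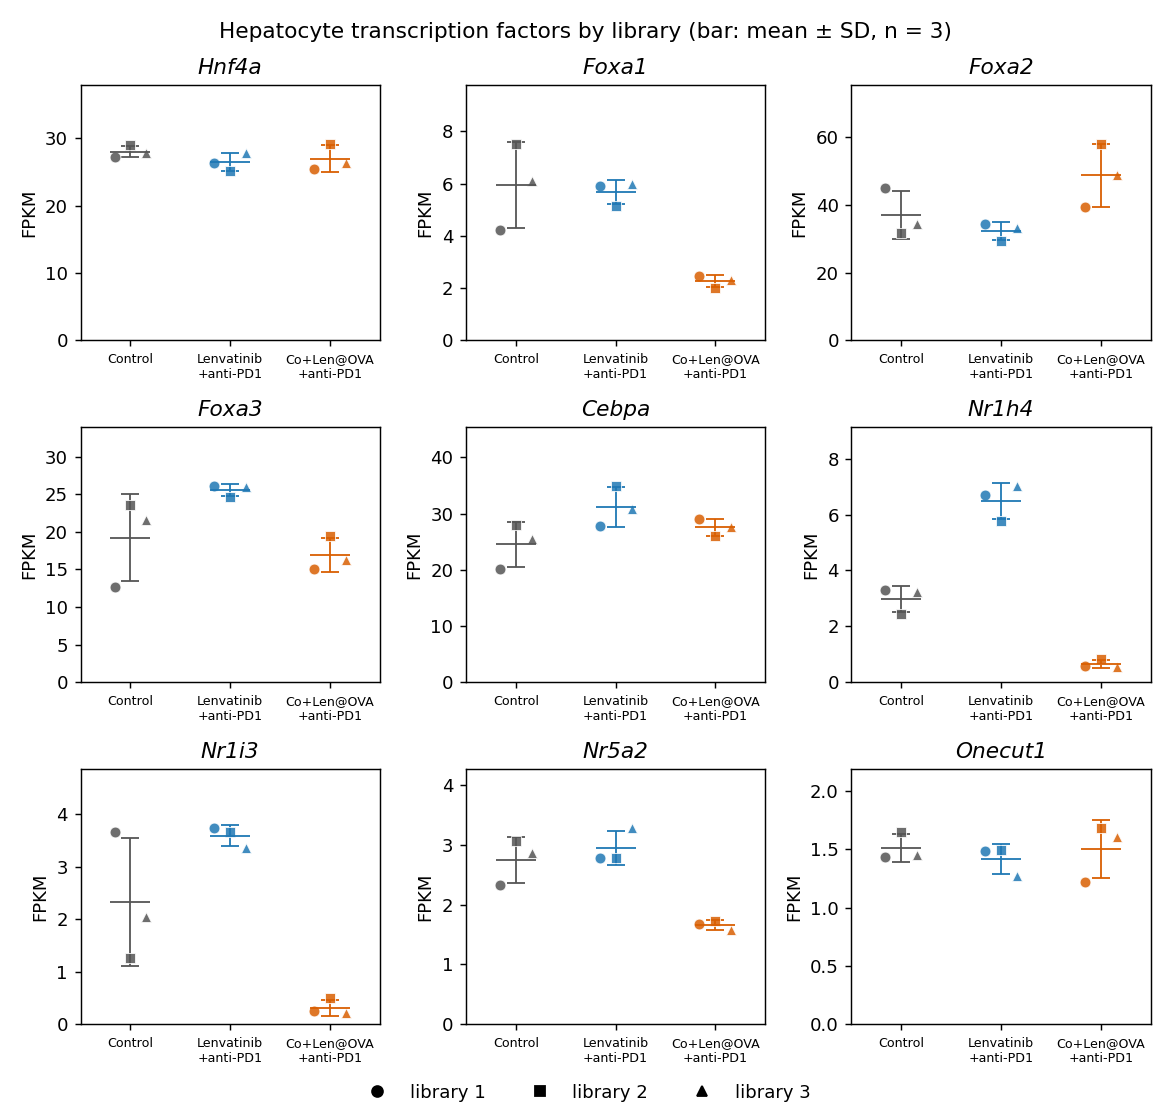
FPKM of each of the 9 factors in the 9 libraries, with 1 panel per gene and a vertical axis that starts at 0; circles, squares and triangles are libraries 1, 2 and 3, and bars are the mean ± SD of 3 libraries. Hnf4a and Onecut1 sit at one level in all groups, while Nr1h4 lies between 0.547 and 0.819 FPKM in Co+Len@OVA+anti-PD1 and between 5.77 and 7.03 in Lenvatinib+anti-PD1.

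In Co+Len@OVA+anti-PD1 tumours, 4 of the 9 factors fell against Control and none rose, and these were the 3 metabolic nuclear receptors Nr1h4, Nr1i3 and Nr5a2 and the forkhead gene Foxa1. Hnf4a, Cebpa, Foxa2, Foxa3 and Onecut1 did not pass. In this comparison 33.6% of all 15353 genes passed, 12.7% lower and 20.9% higher. The groups of the 4 genes that fell did not overlap, and of all genes 49.7% did not overlap, 17.3% lower and 32.4% higher. The median log2 fold change of the 9 was -0.14 and that of all genes 0.13. In libraries 1 and 2 alone 0 of 9 passed in limma, 4 at an unadjusted p under 0.05, and without Control replicate 1 the count was 6, with Foxa2 higher and Foxa3 lower as well.

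In Lenvatinib+anti-PD1 tumours, 1 factor rose against Control and none fell. It was Nr1h4, and the other 8 did not pass. Of all genes 23.7% passed, 13.8% higher and 9.87% lower, so 1 gene of 9 is below the background share. Nr1h4 and Foxa3 were the 2 members whose groups did not overlap, both higher, against 43.5% of all genes (26.1% higher and 17.4% lower). The median log2 fold change was 0.09, and 0.05 for all genes. From libraries 1 and 2 alone 0 of 9 passed in limma, 1 at an unadjusted p under 0.05, and without Control replicate 1 or Control replicate 2 the count was 2.

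Between the treatments, Nr1h4, Nr1i3, Nr5a2 and Foxa1 were lower and Foxa2 was higher in the nanocluster tumours. These were 5 of the 9 members, against 29.4% of all genes (12% lower and 17.3% higher). Foxa3 was also wholly lower without passing, so the groups of 6 members did not overlap, as for 54.8% of all genes (20.4% lower and 34.3% higher). The median log2 fold change of the 9 was -0.59 and that of all genes 0.07. Nr1h4 alone passed of the 9 with libraries 1 and 2 (1 member), and 4 had an unadjusted p under 0.05. The 3 comparisons share groups, so their results are not independent of each other.

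**Figure D2:**
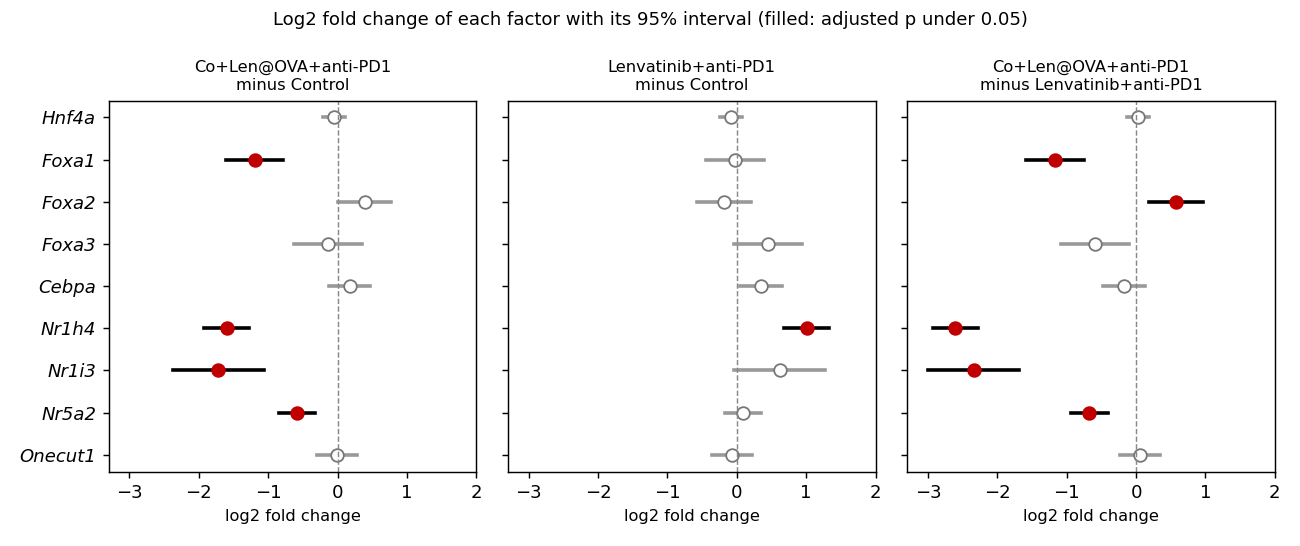
Log2 fold change of log2(FPKM + 0.5) for each factor (points) with its 95% interval from limma (lines), in the 3 comparisons; filled points have an adjusted p under 0.05. Nr1h4 is at -1.60, 1.01 and -2.60 from left to right, and the Hnf4a intervals lie within -0.24 and 0.18 in all 3 panels.

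HNF4A is the nuclear receptor on which most of the liver programme rests, and its mRNA was the steadiest of the 9. Hnf4a was at 27.3, 29.0 and 27.9 FPKM in Control libraries 1 to 3, at 26.3, 25.2 and 27.8 in Lenvatinib+anti-PD1 and at 25.4, 29.2 and 26.4 in Co+Len@OVA+anti-PD1. All groups overlapped. The highest of 9 libraries was 1.16 times the lowest, and 1.02% of the 15013 tested genes above 0 in every library had a smaller ratio. The log2 fold change was -0.06 ± 0.07 SE under the nanocluster (limma adjusted p = 0.548; 95% interval -0.21 to 0.10) and -0.08 ± 0.07 under free lenvatinib (adjusted p = 0.401; -0.24 to 0.07). Scaling the libraries by their upper quartile moved the nanocluster value to -0.27 (adjusted p = 0.0814, within 0.0777 to 0.902 over 19 alternatives). The noncoding antisense gene Hnf4aos, which overlaps Hnf4a in the RefSeq annotation, was listed at 0 in all 3 Co+Len@OVA+anti-PD1 libraries and at 0.162 to 0.281 FPKM in Lenvatinib+anti-PD1, too low to have been tested.

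C/EBPA, the bZIP factor of mature hepatocytes and also of myeloid cells and adipocytes, did not pass in any comparison. Cebpa was at 20.1, 28.0 and 25.4 FPKM in Control, 27.8, 34.9 and 30.8 in Lenvatinib+anti-PD1 and 29.0, 26.0 and 27.6 in Co+Len@OVA+anti-PD1. Control library 1 was the lowest of the 9, and all groups overlapped. The log2 fold change was 0.18 ± 0.13 SE under the nanocluster (limma adjusted p = 0.310; 95% interval -0.12 to 0.47) and 0.35 ± 0.13 under free lenvatinib (adjusted p = 0.0851). The first of these was -0.04 after upper quartile scaling. The 10 myeloid markers summed to 1031 to 1188 FPKM in Co+Len@OVA+anti-PD1 against 132 to 497 in Control. Of these 2 of 10 rose, Lyz2 and Csf3r, near the 20.9% of all genes that rose. Lyz2, lysozyme, made up most of the sum, at a mean of 942 against 225 FPKM, while Cd68 and Csf1r, the next in level, did not pass (limma adjusted p = 0.151 and 0.488). The 8 adipocyte markers summed to 43.1 to 240 FPKM in Co+Len@OVA+anti-PD1 and 5.84 to 15.9 in Control. In Lenvatinib+anti-PD1 libraries 1 to 3 they summed to 47.0, 597 and 269 FPKM. The part of these cells in the Cebpa level was not tested.

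HNF6, a factor of liver and bile duct development, was low throughout. Onecut1 was at 1.43, 1.65 and 1.45 FPKM in Control, 1.48, 1.50 and 1.27 in Lenvatinib+anti-PD1 and 1.22, 1.68 and 1.61 in Co+Len@OVA+anti-PD1. All groups overlapped, with a log2 fold change of -0.01 ± 0.12 SE under the nanocluster (limma adjusted p = 0.951; 95% interval -0.30 to 0.28). The cholangiocyte markers summed to 512 to 596 FPKM in Control and to 278 to 366 in Co+Len@OVA+anti-PD1, most of it from Spp1, Krt19 and Sox9. Of these markers 5 of 7 fell, against 12.7% of all genes, while Cftr stayed at 0.053 FPKM or less in every library.

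The 3 FOXA genes did not move together. Foxa1 was at 4.22, 7.52 and 6.11 FPKM in Control, 5.92, 5.15 and 6.00 in Lenvatinib+anti-PD1 and 2.46, 2.01 and 2.30 in Co+Len@OVA+anti-PD1. Every nanocluster library was below every other library. Foxa1 fell by 1.20 ± 0.18 SE on the log2 scale against Control (limma adjusted p = 0.00251), from 5.95 ± 1.66 to 2.26 ± 0.23 FPKM (SD, n = 3), and fell by 1.17 ± 0.18 against free lenvatinib (adjusted p = 0.00260). In libraries 1 and 2 alone these values were -1.18 (adjusted p = 0.122) and -1.14 (0.130). Ttc6, a gene whose RefSeq span overlaps Foxa1, was at 0.242 FPKM or less in every library.

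Foxa2 had the highest mean of the 9 in every group, although in Lenvatinib+anti-PD1 its libraries overlapped with those of Cebpa, and it did not fall. It was at 45.1, 31.6 and 34.5 FPKM in Control, 34.4, 29.3 and 33.1 in Lenvatinib+anti-PD1 and 39.4, 58.0 and 48.8 in Co+Len@OVA+anti-PD1. The nanocluster libraries lay above those of free lenvatinib and overlapped with Control library 1. Foxa2 rose by 0.57 ± 0.17 SE on the log2 scale against free lenvatinib (limma adjusted p = 0.0368), and did not pass against Control (0.39 ± 0.17, adjusted p = 0.106). The call between the treatments rested near the threshold and held in 8 of 19 alternatives, with adjusted p from 0.0137 to 0.312.

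Foxa3, which supports glucose and lipid genes in adult liver, was at 12.6, 23.5 and 21.6 FPKM in Control, 26.1, 24.7 and 26.0 in Lenvatinib+anti-PD1 and 15.1, 19.4 and 16.2 in Co+Len@OVA+anti-PD1. Control library 1 was the lowest of all 9, and the free lenvatinib libraries lay above all others. No comparison passed: the log2 fold change was -0.14 ± 0.21 SE under the nanocluster (limma adjusted p = 0.631), 0.45 ± 0.21 under free lenvatinib (0.158) and -0.59 ± 0.21 between the treatments (0.0674). The last passed in 5 of 19 alternatives. Without Control replicate 1 it passed at the same size (adjusted p = 0.00209), and the value against Control passed too (-0.41, adjusted p = 0.0221).

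In Control the 3 FOXA genes summed to 61.9, 62.6 and 62.2 FPKM, although Foxa2 alone made up 72.8%, 50.5% and 55.5% of that sum. The share of Foxa2 was 49.5% to 51.8% in Lenvatinib+anti-PD1 and 69.1% to 73.0% in Co+Len@OVA+anti-PD1, so the Foxa2 share of Control library 1 was within the nanocluster range. Foxa1 was 0.0346 to 0.0625 times the level of Foxa2 under the nanocluster, against 0.0936 (library 1) to 0.238 in Control, above that range, and 0.172 to 0.181 under free lenvatinib. These shares are given without a test.

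FXR, the bile acid receptor of the liver and gut, changed in all 3 comparisons. Nr1h4 was at 3.29, 2.45 and 3.24 FPKM in Control, 6.68, 5.77 and 7.03 in Lenvatinib+anti-PD1 and 0.592, 0.819 and 0.547 in Co+Len@OVA+anti-PD1. The 3 groups were fully separated, with free lenvatinib highest and the nanocluster lowest. Nr1h4 fell by 1.60 ± 0.14 SE under the nanocluster (limma adjusted p = 0.000276) and rose by 1.01 ± 0.14 under free lenvatinib (adjusted p = 0.00231). Between the treatments it fell by 2.60 ± 0.14 (adjusted p = 1.50e-05), a 9.95-fold ratio of the FPKM means. In libraries 1 and 2 alone the last call held (-2.48, adjusted p = 0.0137), and those against Control did not (-1.48, adjusted p = 0.0648, and 1.01, adjusted p = 0.143).

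CAR, the receptor that switches on drug-metabolising enzymes, followed a similar order with more spread in Control. Nr1i3 was at 3.67, 1.27 and 2.04 FPKM in Control, 3.74, 3.66 and 3.36 in Lenvatinib+anti-PD1 and 0.244, 0.491 and 0.213 in Co+Len@OVA+anti-PD1. Control library 1 was within the free lenvatinib range, and every nanocluster library was below every control. Nr1i3 fell by 1.72 ± 0.29 SE under the nanocluster (limma adjusted p = 0.00369) and by 2.34 ± 0.29 between the treatments (adjusted p = 0.000824). Its value under free lenvatinib, 0.62 ± 0.29, did not pass (adjusted p = 0.152), and passed without Control replicate 1 (0.95, adjusted p = 0.0109). Its nanocluster values from libraries 1 and 2 alone were -1.66 (adjusted p = 0.135) and -2.29 (0.0752). The nanocluster mean, 0.316 FPKM, was below the 0.5 FPKM filter that the gene passed through the other groups, and a pseudocount of 0.5 understates its change, which was 7.37-fold as a ratio of the FPKM means against Control. Tomm40l, which overlaps Nr1i3 in the RefSeq annotation, was at 5.20 to 6.86 FPKM in all libraries and rose slightly under both the nanocluster (0.24, limma adjusted p = 0.0283) and free lenvatinib (0.23, adjusted p = 0.0416).

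LRH-1, which acts with FXR on bile acid synthesis, was lower under the nanocluster by a smaller step. Nr5a2 was at 2.32, 3.06 and 2.86 FPKM in Control, 2.77, 2.78 and 3.28 in Lenvatinib+anti-PD1 and 1.67, 1.73 and 1.58 in Co+Len@OVA+anti-PD1. The nanocluster libraries were below all others. Nr5a2 fell by 0.58 ± 0.11 SE against Control (limma adjusted p = 0.00717) and by 0.67 ± 0.11 against free lenvatinib (adjusted p = 0.00408). Libraries 1 and 2 alone gave -0.53 (adjusted p = 0.194) and -0.58 (0.197). The groups on free lenvatinib and Control overlapped (0.09 ± 0.11, adjusted p = 0.609; 95% interval -0.17 to 0.35).

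Set against Hnf4a in the same library, Nr1h4 was at 8.46% to 12.03% of the Hnf4a level in Control, at 22.9% to 25.4% in Lenvatinib+anti-PD1 and at 2.07% to 2.80% in Co+Len@OVA+anti-PD1. Nr1i3 was at 4.39% to 13.4%, 12.1% to 14.5% and 0.805% to 1.68% of the Hnf4a level in the same order. The liver product Alb, serum albumin, was 58.2 to 124 times the Hnf4a level in Control, 74.9 to 76.8 times in Lenvatinib+anti-PD1 and 24.8 to 31.1 times in Co+Len@OVA+anti-PD1. These ratios are a description, with no test.

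The mature hepatocyte markers, led by Alb, Trf and Apoa1, were lowest under the nanocluster, as were the 3 nuclear receptors. They summed to 1235 to 1660 FPKM in Co+Len@OVA+anti-PD1, 3473 to 7492 in Control and 5351 to 5658 in Lenvatinib+anti-PD1. Under the nanocluster 16 of 16 fell (12.7% of all genes), and 2 of 16 rose under free lenvatinib (13.8% of all genes). Under free lenvatinib the sum was within the Control range, while Nr1h4 was above its own Control range, and Control library 1, with the highest sum, had the lowest Nr5a2 of the controls. None of the 16 was at 0 in every library. The fetal liver and hepatoma markers, led by Afp, H19 and Igf2bp3, summed to 379 to 449 FPKM in Control and 242 to 251 in Co+Len@OVA+anti-PD1, with 2 of 5 fallen. Fewer hepatocytes in a piece and less of these RNAs per cell cannot be told apart in bulk tissue. The part of host liver content in the fall of Nr1h4, Nr1i3, Nr5a2 and Foxa1 was not tested.

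**Figure D3:**
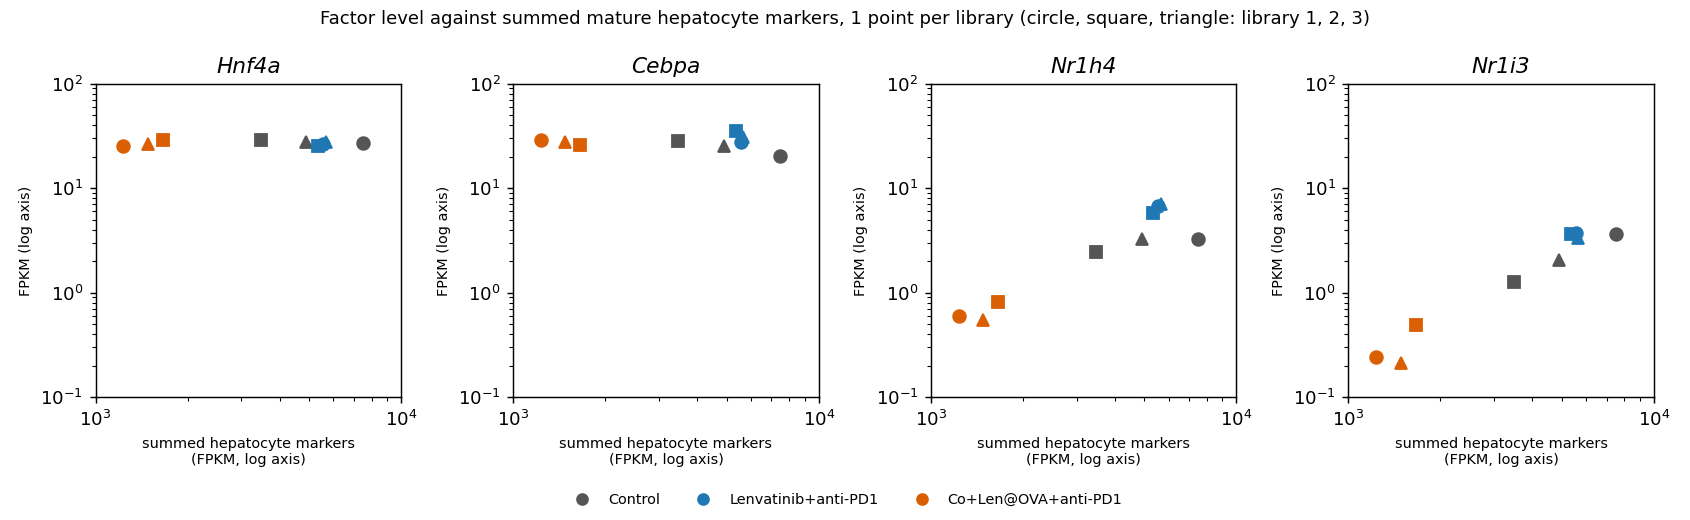
FPKM of Hnf4a, Cebpa, Nr1h4 and Nr1i3 (vertical, log axis) against the summed FPKM of 16 mature hepatocyte markers (horizontal, log axis), 1 point per library, coloured by group. Hnf4a stays level from 1235 to 7492 FPKM of markers, Cebpa runs from 20.1 to 34.9 FPKM and is lowest in the library with the most markers, and the 3 Co+Len@OVA+anti-PD1 libraries are lowest on both axes for Nr1h4 and Nr1i3.

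Other cell types varied too. Skeletal and heart muscle markers summed to 3716 and 1483 FPKM in Lenvatinib+anti-PD1 libraries 2 and 3 and to 1.21 to 39.0 in the other 7. Across those 3 libraries Nr1h4 kept between 5.77 and 7.03 FPKM and Nr1i3 between 3.36 and 3.74, and library 1 of that group, with 25.4 FPKM of muscle markers, was at 6.68 and 3.74 FPKM. T cell markers summed to 113 to 162 FPKM under the nanocluster and 12.9 to 59.7 in Control. Pancreas acinar markers summed to at most 13.7 FPKM, and the defining endothelial markers summed to at most 28.9 FPKM. The 6 intestine epithelium markers summed to 36.6 to 43.1 FPKM in Control, 54.6 to 60.7 in Lenvatinib+anti-PD1 and 30.1 to 31.2 in Co+Len@OVA+anti-PD1, most of it from Vil1, which encodes the microvillus protein villin and was at 28.1 to 53.2 FPKM. Vil1 and Fabp2, a fatty acid binding protein at 0.443 to 5.69 FPKM, fell under the nanocluster (log2 fold change -0.36 and -0.93, limma adjusted p = 0.0132 and 0.0243) and rose under free lenvatinib (0.47 and 1.47, adjusted p = 0.00583 and 0.00507), the directions of Nr1h4. Lgals4 was at 1.33 to 2.02 FPKM and did not pass, and Fgf15, Cdx1 and Muc2 were at 0.0847 FPKM or less in every library. The part of such cells in the Nr1h4 level was not tested.

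Among 28 other liver transcription factors tested, 10 fell and 4 rose under the nanocluster, a median of -0.25. That was 50% of them, against 33.6% of all genes (12.7% lower and 20.9% higher). On the log2(FPKM + 0.5) scale, which understates the change of low genes, the largest falls were Nr1i2, which encodes the drug receptor PXR and was at 0.04 against 2.36 FPKM (log2 fold change -2.33 ± 0.26 SE, limma adjusted p = 0.000705), Creb3l3, a membrane-bound factor of liver lipid genes (-1.67 ± 0.11, adjusted p = 8.80e-05), and Ppara, the fatty acid receptor (-1.55 ± 0.19, adjusted p = 0.000961). Nr0b2, the FXR-induced repressor SHP, fell by 0.89, from 0.454 to 0.011 FPKM. Both means are under the 0.5 FPKM filter, which it passed through the free lenvatinib libraries. Its nanocluster libraries were at 0, 0 and 0.034 FPKM. The ratio of its means, 39.5-fold, hangs on that last value and is not ranked against those of Creb3l3 (5.96) and Ppara (6.42). Bhlhe40, Hhex, Gata4 and Rora fell by 0.85, 0.48, 0.47 and 0.46. Nr1h3, which encodes the oxysterol receptor LXR-alpha and is also active in macrophages, rose by 1.04, and Tcf7l2, Zhx2 and Nr1h2 rose by 0.75, 0.63 and 0.17. The secretory factor Xbp1 was at 57.8 against 54.0 FPKM (limma adjusted p = 0.422). After either scaling 12 fell and 2 rose. With libraries 1 and 2 alone 0 of the 28 passed in limma, 7 at an unadjusted p under 0.05, and without Control replicate 3, Lenvatinib+anti-PD1 replicate 3 or Co+Len@OVA+anti-PD1 replicate 3 the count of 14 became 7, 9 and 6.

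Under free lenvatinib 7 of the 28 rose and 5 fell against Control, 42.9% of them against 23.7% of all genes. Nr0b2 rose from 0.45 to 3.16 FPKM (log2 fold change 1.93 ± 0.16 SE, limma adjusted p = 0.000238) and Creb3l3 from 2.35 to 6.02 FPKM (1.20 ± 0.11, adjusted p = 0.000431), the largest rises in the list. Nr0b2 passed the filter only through the free lenvatinib libraries, so it had to differ here and between the treatments and is no support. Ppara fell by 0.97 and Bhlhe40 by 0.96. Nr1i2 was at 2.15 FPKM against 2.36 (adjusted p = 0.945), unlike under the nanocluster, where the difference between the treatments was -2.29 ± 0.26 (adjusted p = 0.000562). Between the treatments 8 of the 28 fell and 3 rose, 39.3% of them against 29.4% of all genes. With libraries 1 and 2 alone 0 of the 28 passed in limma against Control, 10 at an unadjusted p under 0.05, and 2 passed between the treatments. Without Lenvatinib+anti-PD1 replicate 3 the counts were 6 and 4. The count of 11 between the treatments became 6, 5, 6 and 7 without Co+Len@OVA+anti-PD1 replicate 1 or 3 and Lenvatinib+anti-PD1 replicate 1 or 2.

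Genes reported as targets of the factors, in 6 lists written from textbook knowledge, were lower under the nanocluster almost throughout. The lists do not separate genes that a factor induces from genes that it represses, so their direction does not measure its activity. Of 68 distinct target genes tested, 57 fell and 1 rose against Control (12.7% and 20.9% of all genes), with a median log2 fold change of -1.76. Of the 74 genes in the lists, 7 are also among the hepatocyte markers, and without them 50 of 61 fell and 1 rose. With libraries 1 and 2 alone 5 passed, all lower, and 54 had an unadjusted p under 0.05. The share was high also for HNF4A and C/EBPA, whose own mRNA did not pass. Of the HNF4A targets 16 of 18 fell (median -2.33), led by Apoa4, Apoc3 and Apoh, carriers and cofactors of plasma lipids, at -4.68, -4.43 and -4.10. Of the C/EBPA targets 12 of 14 fell and 1 rose (median -2.35), led by Serpina1a, Cps1 and Tat, which encode alpha-1 antitrypsin, the first urea cycle enzyme and a tyrosine aminotransferase, at -4.31, -3.74 and -3.38. The 1 that rose was Csf3r, the G-CSF receptor of neutrophils, at 0.78, which is in the myeloid list too. After either scaling no target rose. Of the FOXA and HNF6 targets 11 of 12 fell (median -2.00), with Tat, Tdo2 and Pck1 at -3.38, -3.11 and -3.10.

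The targets of the nuclear receptors were mostly lower too, where 12.7% of all genes fell and 20.9% rose. Of 11 FXR targets 8 fell (median -1.40), and Abcb11, the bile salt export pump, was at 0.10 against 0.99 FPKM (log2 fold change -1.25 ± 0.21 SE, limma adjusted p = 0.00401). The largest falls in that list were Kng1, Cyp8b1 and Fetub, at -4.24, -2.22 and -2.19. Cyp8b1 and Cyp7a1 are in the list as genes that FXR represses through SHP, so their fall does not follow from less FXR. Of 14 CAR targets 11 fell (median -1.63), with the drug-metabolising enzymes Cyp3a11 and Cyp2c50 and the bilirubin-conjugating enzyme Ugt1a1 at -3.74, -2.86 and -2.87. Cyp2b10, the usual readout of CAR in mice, was too low to be tested, at 0.407 FPKM in Control, 0.143 under free lenvatinib and 0.023 under the nanocluster. Cyp2b9 (0.520, 0.190 and 0.013) and Cyp2c55 (0.063, 0.586 and 0.027) were too low as well, given in the same order. The Control and free lenvatinib libraries overlapped for Cyp2b10 and Cyp2b9. Of 9 LRH-1 targets 8 fell (median -0.89), with Cyp8b1 and Cyp7a1, enzymes of bile acid synthesis, at -2.22 and -1.40. The cholesterol receptor gene Scarb1 was at 8.67 against 8.99 FPKM. The median is the value of Nr0b2, which the pseudocount understates. Nr0b2 (0.011 against 0.454 FPKM) is also in the FXR list. It, Abcg8 (0.028 against 0.256) and Abcg5 (0.085 against 0.691) passed the filter only through the free lenvatinib libraries. Their falls are no support for these lists.

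Under free lenvatinib the lists were higher or mixed. Of the 68 targets 27 rose and 7 fell against Control (13.8% and 9.87% of all genes), a median of 0.72. With libraries 1 and 2 alone 4 passed. Without Control replicate 1 the count was 51 in place of 34, and after upper quartile scaling 21 rose and 9 fell. Of the CAR targets 7 rose and 3 fell (median 1.02). Cyp2a5, which encodes a liver enzyme of nicotine and coumarin oxidation, was at 10.7, 6.78 and 11.2 FPKM in Control, 135, 122 and 135 under free lenvatinib and 2.63, 2.96 and 3.22 under the nanocluster. The 3 groups did not overlap, and the rise was 3.74 ± 0.17 SE (limma adjusted p = 2.10e-05). Gstm3, a glutathione transferase, and Cyp2c29 also rose, by 2.81 and 1.79, while Gadd45b, Por and Abcc3 fell by 1.52, 1.23 and 0.75. Of the FXR targets 5 rose and none fell (median 1.05), with the organic anion transporter Slco1b2, Fgf21 and Nr0b2 at 2.37, 2.19 and 1.93. Fgf21 (0.193 FPKM in Control and 0.128 under the nanocluster against 2.67) and Nr0b2 passed the filter only through the free lenvatinib libraries where they are high, so they had to differ and are no support for the list. Of the HNF4A targets 5 rose and 1 fell, and of the C/EBPA targets 4 rose and 2 fell. Of the FOXA and HNF6 targets 4 rose and 1 fell. Of the LRH-1 targets 4 rose. Abcg8, a sterol exporter, and Abcg5 (0.691 FPKM in Control, 0.085 under the nanocluster and 3.17 under free lenvatinib) are among these. Both passed the filter in the same way as Fgf21 and Nr0b2.

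Between the treatments 55 of the 68 targets fell and 5 rose (12% and 17.3% of all genes). Their median log2 fold change was -2.87, and that of all genes 0.07. Of these targets 37 passed with libraries 1 and 2 alone, 36 of them lower. Fgf21, Nr0b2, Abcg8 and Abcg5 are among the targets and passed the filter only through the free lenvatinib libraries. These genes had to differ between the treatments, so they are no support for the counts. The CAR list had the lowest median, -3.66, with Cyp2a5 at -5.25 ± 0.17 SE (limma adjusted p = 1.35e-06). The 5 that rose were Arg1, Csf3r, Cpt1a, Abcc3 and Por, at 1.16, 1.37, 0.37, 0.46 and 0.31, of which Arg1 is an arginase of macrophages as well as hepatocytes.

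**Figure D4:**
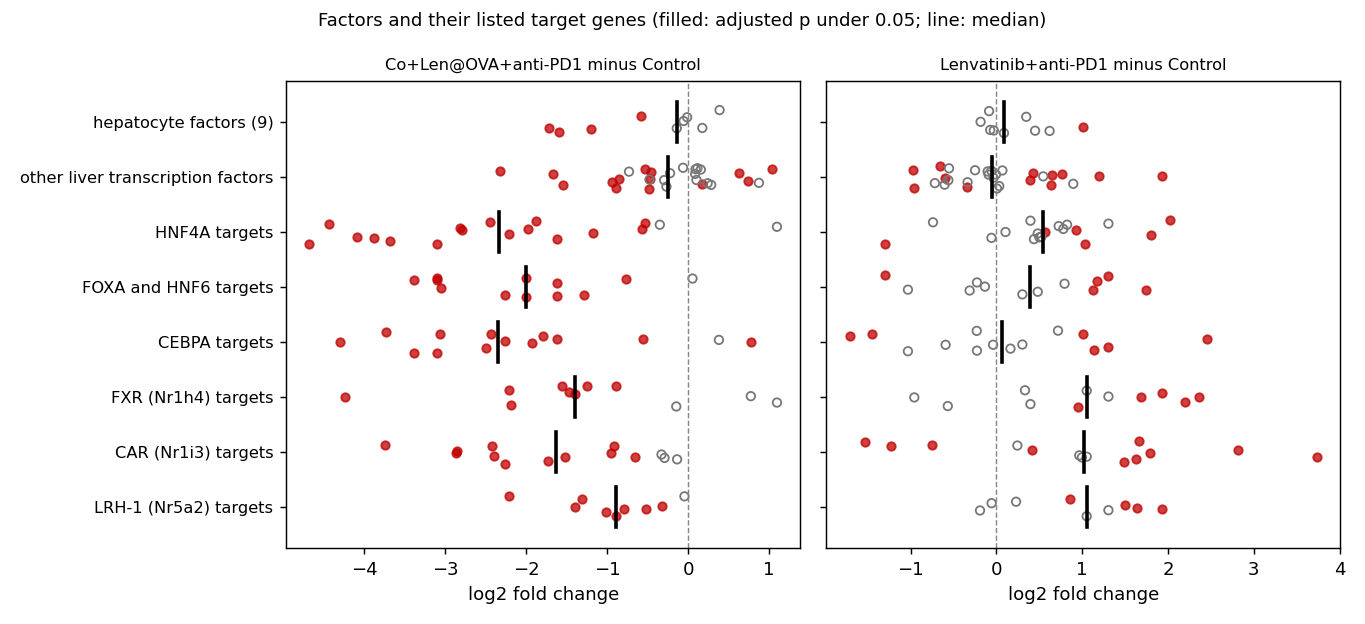
Log2 fold change of log2(FPKM + 0.5) against Control for the 9 factors, the other liver factors and the 6 lists of target genes, under the nanocluster (left) and free lenvatinib (right); each point is a gene, filled with an adjusted p under 0.05, and the black line is the median of the list. On the left the factor median is -0.14 while the HNF4A and C/EBPA target medians are -2.33 and -2.35.

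Genes with profiles most like each factor were ranked by the mean absolute difference of log2(FPKM + 0.5), centred over the 9 libraries, among 11119 genes (11120 for Onecut1) with a mean of at least 2 FPKM. Nearest to Nr1h4 were Creb3l3, Prodh2 and Gys2, at 0.13, 0.15 and 0.16 on the log2 scale, where Nr1h4 itself deviated from its mean by 0.94 on average. Nearest to Nr1i3 were Ttr, Slc6a13 and F2 (0.13, 0.14 and 0.17), of which Ttr and F2 are in the HNF4A list. Nearest to Foxa1 were Creb3l1 and Cldn9 (0.12 and 0.13), to Foxa2 Pdia5, Them6 and Pls3 (0.06, 0.06 and 0.08), and to Foxa3 Gprc5c, Tarbp1 and Nop2 (0.09, 0.10 and 0.11). Nearest to Nr5a2 were Ly6g2, Plk2 and Trib2 (0.05, 0.07 and 0.08) and to Cebpa Slc25a20, Pank3 and Hadha (0.04, 0.05 and 0.05). Hnf4a and Onecut1 were so level that their neighbours, Katnbl1, Lrrc59 and Ube2z (0.02 each) and Nudt22, Sap130 and Smyd4 (0.04, 0.05 and 0.05), are other level genes. The 9 libraries fall into 3 groups, so these distances describe this set of tumours and carry no test.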

How the data were processed

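The authors deposited FPKM values for 32761 genes in 9 libraries, although the table is titled as raw counts. Per the labels' protocols, poly(A) RNA was made into dUTP-marked libraries and read in pairs of 150 bases on a NovaSeq. Tools named in the submitters' processing notes were fastp, edgeR and StringTie, with neither version nor role. No source used here gives the aligner, build, annotation or strand setting. In low values of genes with 1 transcript, at most 3.06% of library ratios lay within 1% of the commonest ratio, so fragment counts were not recovered.

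Here, limma 3.58.1 in R 4.3.3 (trend and robust empirical Bayes) was fitted to log2(FPKM + 0.5), unscaled, for the 15353 genes averaging 0.5 FPKM or more, in 1 fit of 3 groups of 3 libraries with 6 residual degrees of freedom, and adjusted over all genes. The step was tested on simulated data. All 9 members passed the filter. They, the gene lists, the motifs and the tests were chosen with earlier results of these data known, so the lists are no independent evidence. Of the target, marker and other factor symbols, Cyp2b13, Amy2b, Ptf1a and Cdx2 were not matched. All members are named, list genes by size of change among those that passed, and other named genes were chosen after their values were seen. Alternatives were other pseudocounts, filters, scalings, fits of 2 groups, a replicate block, a plain variance model and leaving out libraries. Promoters were scanned in Python 3.11.15. Some genes and motifs that the rules name are not reported here.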

Additional observations from a re-analysis of the deposited data

How the results depend on the processing

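With libraries 1 and 2 of each group alone, the members called were 0, 0 and 1 (Co+Len@OVA+anti-PD1 against Control, Lenvatinib+anti-PD1 against Control, and between the treatments), the other liver factors 0, 0 and 2, the targets 5, 4 and 37 and all genes 80, 53 and 365. Behind the counts of 0 in limma, 4 and 1 members and 7 and 10 other factors had an unadjusted p under 0.05. For the first comparison the other factors called were 8 with no filter and 7 in a fit of the 2 groups, where all genes called were 3279. Leaving out each library in turn gave 4 to 6, 1 to 2 and 4 to 6 members, 6 to 13, 6 to 15 and 4 to 15 other factors, 49 to 59, 26 to 51 and 54 to 63 targets, and 2849 to 5770, 1957 to 5053 and 2381 to 6592 genes. Directions turned only for members that had not passed. With upper quartile scaling Cebpa was at -0.038 under the nanocluster and Nr5a2 at -0.0063 under free lenvatinib. Between the treatments Hnf4a was at -0.060 and -0.074, and Onecut1 at -0.0081 and -0.017, with median-of-ratios and upper quartile scaling, and Onecut1 at -0.037 with libraries 1 and 2. Leaving out a library, Onecut1 ran from -0.077 to 0.094 and Foxa3 from -0.41 to 0.026 under the nanocluster, Foxa1 from -0.24 to 0.14 and Nr5a2 from -0.010 to 0.16 under free lenvatinib, and Hnf4a from -0.027 to 0.070 and Onecut1 from -0.0056 to 0.17 between the treatments. Same-numbered libraries did not deviate together (correlations -0.25 to 0.08), and libraries of unlike numbers ran from -0.19 to 0.24. These deviations are taken from the mean of 3 libraries per group, so they cannot decide whether the numbers pair samples. With the replicate block 4, 1 and 4 members were called, without Foxa2 between the treatments, and 7 other factors in place of 11 there. The cause of these shifts was not tested. Depth is unknown, so the counting error of low values such as Nr1i3 under the nanocluster cannot be estimated.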
